A study of Drosophila melanogaster with 29 samples.

Results

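Mitochondrial ribosomal protein genes were compared between the sexes and among 5 laboratory strains of Drosophila melanogaster. Members were the genes whose symbol in the array annotation starts with mRpL (large subunit) or mRpS (small subunit), taken from probe sets that carry exactly 1 symbol, with the brightest probe set by the mean over all arrays standing for each gene. This gave 64 genes, 43 of the large and 21 of the small subunit, among 10844 genes so represented and 13966 probe sets tested. They came from 66 probe sets, since mRpL11 and mRpL12 had 2 each. The RefSeq gene table of the fly holds 73 genes of these names, and the other 9 (mRpL27, mRpL34, mRpL37, mRpL53, mRpS5, mRpS10, mRpS14, mRpS21 and mRpS23) were not measured under this rule.

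Mitochondrial ribosomes translate the few messages encoded by mitochondrial DNA, which specify core subunits of the respiratory chain and the ATP synthase. Their RNAs are transcribed in the organelle, whereas their proteins are encoded in the nucleus, made in the cytosol and imported. Compared with a bacterial ribosome, the mitochondrial particle has lost RNA and gained proteins, which carry the higher numbers of the mRpL and mRpS series. In flies the group is known through tko, the small subunit protein S12, whose mutation causes bang sensitivity and slow development, and through bonsai, the S15 homologue needed for normal growth. Fly oocytes store large numbers of mitochondria.

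RNA was hybridised from whole adults 0 to 6 h after eclosion, reared at 25 °C: males and virgin females of the strains France, Antigua, Glasgow Oregon R, Cambridge Oregon R and Hikone (labelled as a Japanese Oregon R), here called Glasgow, Cambridge and Hikone. The flies carried no engineered allele and received no treatment. All 5 strains were long-kept laboratory stocks, so that a strain stands for 1 stock and not for a population, and whole flies mix all tissues. Each group of strain and sex had 3 arrays, each from its own RNA extraction, except Hikone females with 2, which gave 29 arrays, 15 male and 14 female. Values are log2 signals of Affymetrix probe sets after GCRMA, in which a difference of 1 is 2-fold. A call means an adjusted p below 0.01 (limma, Bonferroni over all 13966 probe sets).

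Marker genes separated the sexes on every array, and 3 male arrays had raised signal of 1 yolk protein gene, Yp1. The summed signal of 29 ovary and germline markers (log2 of the sum) was 13.9 to 14.9 in females and 10.9 to 12.8 in males, while that of 22 testis and sperm markers was 9.04 to 9.57 in females and 14.7 to 15.7 in males. Yp1, a yolk protein made in females, was at 12.7 to 13.9 in females, but Cambridge males replicate 1 had 10.85, Hikone males replicate 1 had 5.38 and Cambridge males replicate 2 had 4.95. The other male arrays had 2.06 to 2.42 of Yp1. Cambridge males replicate 1 also had a summed eggshell signal of 11.8 and an ovary signal of 12.8. The other male arrays had 6.87 to 7.42 and 10.9 to 11.5. Summed over 3 yolk protein genes, the signal was 11.7 on Cambridge males replicate 1, 7.47 on Hikone males replicate 1 and 5.95 on Cambridge males replicate 2. On the other male arrays it was 4.29 to 8.36, with 7.13 to 8.36 in France. Only Yp1 thus set all 3 arrays apart together. Cambridge males replicate 1 also stood outside all other male arrays in the eggshell, ovary and summed yolk protein signals. Counts and calls that changed without these 3 male arrays are given both ways.

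The mitochondrial ribosomal protein genes were higher in females than in males. Of 64 members, 58 were called higher in females and 0 in males, where 28.8% of all probe sets were called higher in females and 18.1% higher in males (46.8% in either direction). The estimates of all 64 members lay below 0 as male minus female. Their median was -1.03 with quartiles at -1.36 and -0.61, and the median over all probe sets was -0.08. Among the members, 36 were called and over 2-fold higher in females, against 17.1% of all probe sets, and for 41 members every female array lay above every male array, against 19.1%. Without the 3 male arrays with raised Yp1, 55 members were called higher in females, 34 of them over 2-fold, and the calls of mRpL41 (adjusted p = 0.0899, limma), mRpS9 (0.0481) and mRpS17 (0.0126) were lost. The shares of all probe sets called without these 3 arrays are not given here. Because whole flies were used, more cells of a tissue in females and more RNA per cell cannot be told apart.

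**Figure D1:**
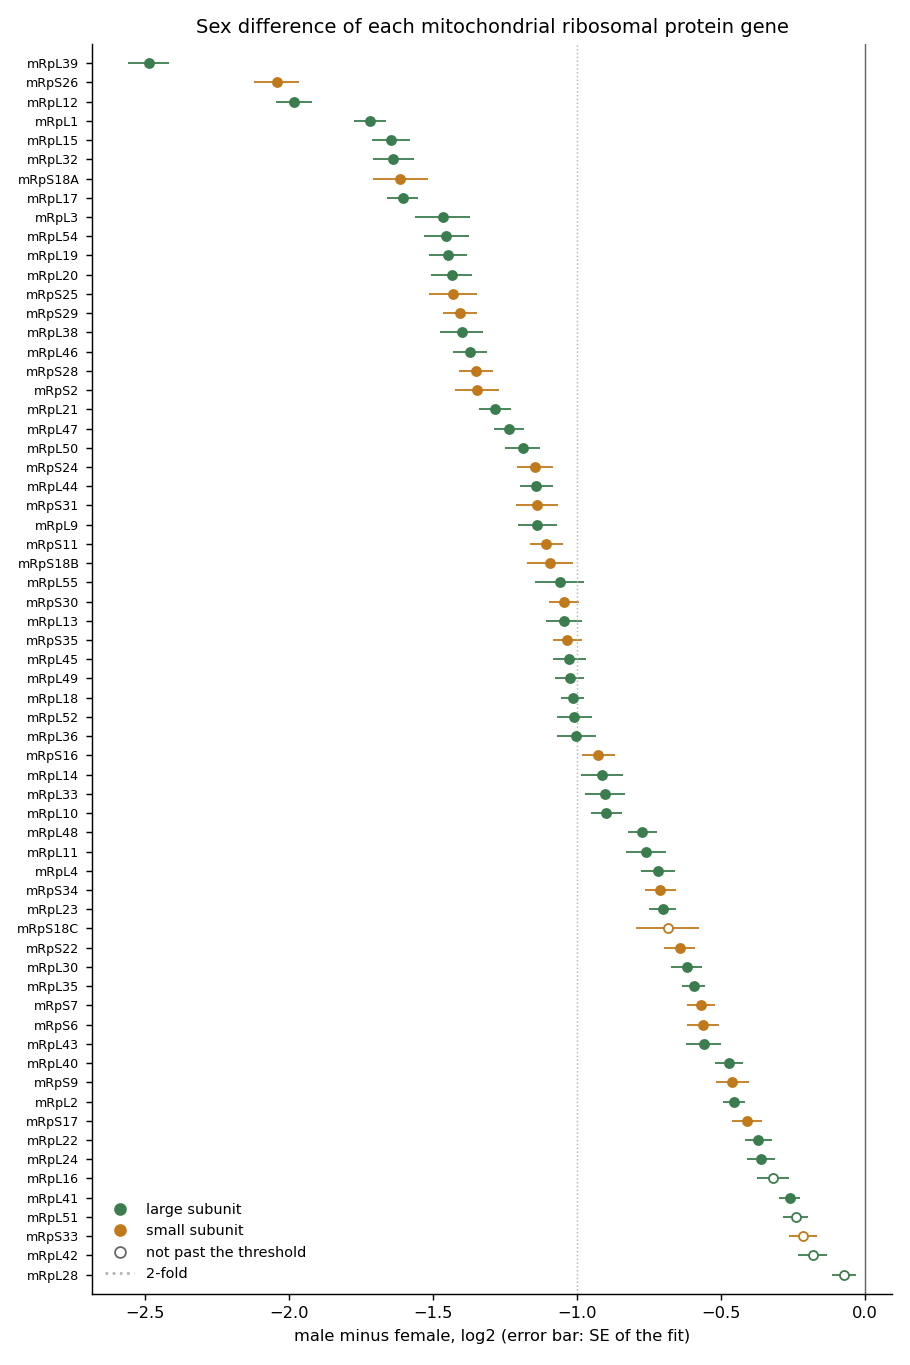
Male minus female difference (log2) of each of the 64 members, averaged over the 5 strains, with its standard error. Points run from -2.49 for mRpL39 to -0.07 for mRpL28. Open points are the 6 members that did not pass the threshold.

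mRpL39, a large subunit protein of the mitochondrial series with no bacterial counterpart, had the largest difference. Its gene lies on arm 3L, 14997981 to 14999666 (Release 6 coordinates, as in all positions given here). Its lowest, median and highest values were 7.24, 7.55 and 7.94 in females and 4.41, 4.92 and 5.60 in males, so that the sexes stood well apart on every array. The fitted difference was -2.49 (SE 0.07), 5.61-fold higher in females (limma, adjusted p = 8.89e-16).

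mRpS26, a small subunit protein that bacteria also lack (3L, 18106579 to 18107499), came next. The female arrays held 5.73, 6.31 and 6.87 as lowest, median and highest, and the male arrays 4.02, 4.19 and 4.74. No male array reached the lowest female one. The difference was -2.04 (SE 0.08), 4.12-fold (adjusted p = 4.66e-13, limma).

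mRpL12 is the flexible stalk protein that recruits translation factors to the large subunit, and its human counterpart also binds the mitochondrial RNA polymerase. The gene (3L, 8956791 to 8957584) was at 8.56, 8.87 and 9.55 in females and at 6.60, 6.97 and 7.32 in males. Here too the ranges were separate, by more than 1 log2 unit. Females were 3.95-fold higher (difference -1.98, SE 0.06, adjusted p = 9.5e-15, limma). mRpL10, which anchors the stalk to the ribosome, differed by -0.90 (SE 0.05), 1.86-fold, with females at 6.89 to 7.79 and males at 6.08 to 6.64. mRpL11, the neighbour of the stalk base in bacteria, differed by -0.76 (SE 0.07). The stalk proteins were thus all called higher in females, at differences that spanned more than 1 log2 unit.

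mRpL1, the protein of the opposite stalk near the exit site for spent tRNA, was at 7.34, 7.61 and 7.86 in females and at 5.66, 5.88 and 6.16 in males. It differed by -1.72 (SE 0.06), 3.29-fold (adjusted p = 1.84e-14, limma). No male array of mRpL1 came near the female ones. mRpL15 and mRpL32, both of bacterial type, differed by -1.65 (SE 0.07) and -1.64 (SE 0.07). Their male arrays reached up to 6.13 and 6.07, below the lowest female arrays at 6.90 and 6.69.

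mRpS18A differed by -1.61 (SE 0.10). Animals have 3 relatives of bacterial S18, mRpS18A, mRpS18B and mRpS18C. mRpS18B was called too, at -1.09 (SE 0.08), whereas mRpS18C, with -0.69 (SE 0.11, adjusted p = 0.0469, limma), was not, and its female and male arrays overlapped (6.27 to 7.85 and 5.49 to 7.31).

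mRpL17, which in bacteria lies near the exit of the tunnel for the nascent chain, differed by -1.61 (SE 0.05), with 8.17 to 8.67 in females and 6.29 to 7.20 in males. mRpL3, whose bacterial counterpart reaches towards the peptidyl transferase centre, differed by -1.47 (SE 0.10). Its signal was low, at 4.12 to 5.96 in females and 3.53 to 3.91 in males, but no array of one sex reached those of the other. mRpL54, again of the mitochondrial series, closed the 10 largest differences at -1.45 (SE 0.08).

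The 6 members with no call were mRpL28 at -0.07 (SE 0.04), mRpL42 at -0.18 (SE 0.05), mRpS33 at -0.22 (SE 0.05), mRpL51 at -0.24 (SE 0.04), mRpL16 at -0.32 (SE 0.06) and mRpS18C. In all of them the ranges of females and males overlapped. The member just inside the threshold was mRpL41, with -0.26 (SE 0.04, adjusted p = 0.00958, limma), which lost its call under 31 of 41 alternative settings. For mRpL28, females had 8.20, 8.40 and 8.62 and males 8.07, 8.27 and 8.82 as lowest, median and highest values, the highest array of all being male.

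The part of the ribosome was read from the symbol alone. By it, 39 of 43 large subunit members were called higher in females (median difference -1.02) and 19 of 21 small subunit members (-1.05). Of 36 members numbered as in bacteria, 33 were called (median -0.92), 17 of them over 2-fold, and of 28 with higher numbers 25 were called (-1.05), 19 over 2-fold. By chromosome arm, 8 of 10 members on 2L were called, 9 of 10 on 2R, 16 of 16 on 3L (median -1.24), 16 of 18 on 3R and 9 of 10 on X. For comparison, among all genes by their brightest probe set 30.3% were called higher in females on 2L, 30.5% on 2R, 30.9% on 3L, 31.0% on 3R and 37.2% on X. The members did not lie in clusters. The closest pair were mRpL3 and mRpS30 on X, 23384 bases apart, both called at -1.47 and -1.05, followed by mRpL24 and mRpL28 on 2L, 28615 bases apart, of which the first was called at -0.36 and the second not.

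Second probe sets added nothing for mRpL12 and mRpL11, whose dimmer sets had means of 2.52 and 2.18 in females and 2.46 and 2.16 in males and were not called. mRpS10, which was not a member because its probe set also names CG34316, had -1.87 (SE 0.10) as the difference of that shared set.

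The median deviation of the members separated the sexes on every array. Whether members varied together within a group was not measured. For each array, the deviation of every member from its mean over the 29 arrays was taken, and the median over the 64 members lay between 0.24 and 0.76 in females and between -0.69 and -0.22 in males. The lowest female arrays were Cambridge females replicate 3 with 0.24 and Antigua females replicate 1 with 0.28, and the 2 highest were Glasgow arrays. The highest male arrays were those of France, from -0.35 to -0.22. Replicates of a member differed little, with a mean standard deviation per group from 0.10 (France males) to 0.21 (Cambridge females).

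**Figure D2:**
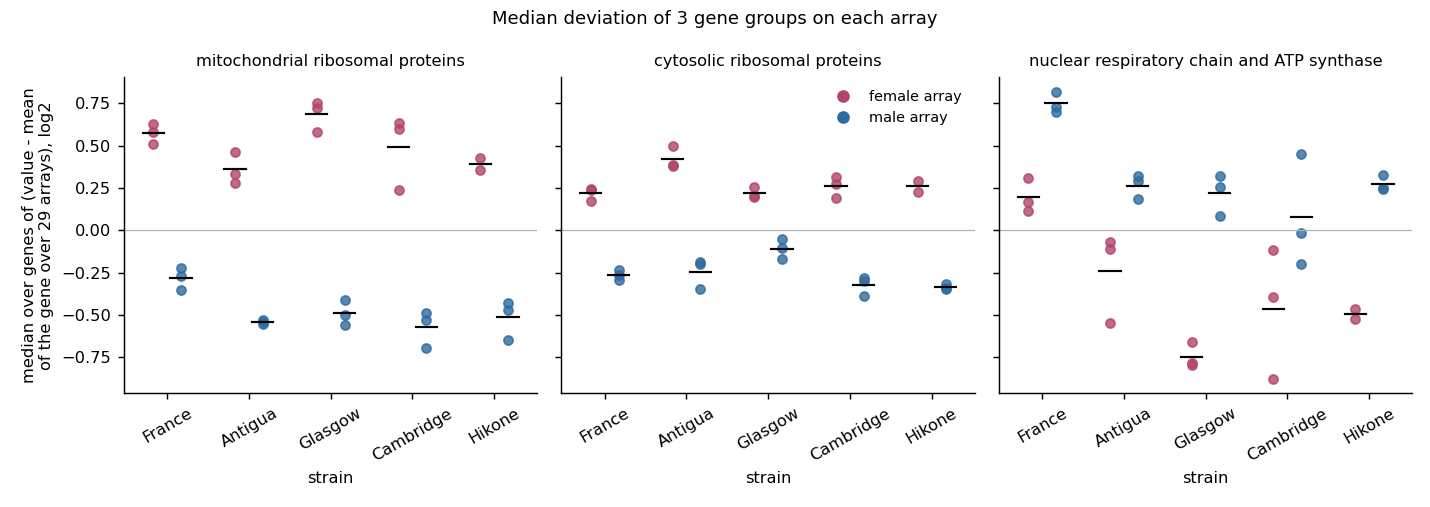
Median deviation (log2) of 3 gene groups on each of the 29 arrays, by strain and sex, with the mean of each group as a black line. The mitochondrial ribosomal protein genes were above 0 on every female array (0.24 to 0.76) and below 0 on every male array (-0.69 to -0.22), while female and male arrays overlapped for the nuclear respiratory chain genes.

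Other parts of mitochondrial gene expression were described from fixed lists, whose counts are to be read against the 28.8% of all probe sets called higher in females and the 18.1% called higher in males. The mitochondrial ribosomal proteins under other symbols, bonsai and tko, were both called higher in females. bonsai was at 7.99, 8.61 and 8.92 (lowest, median, highest) in females and at 5.52, 6.60 and 7.20 in males, a difference of -2.02 (SE 0.10, adjusted p = 1.62e-10, limma). tko was at 6.36, 6.88 and 7.32 in females and at 4.85, 5.13 and 6.05 in males, with -1.63 (SE 0.07, adjusted p = 1.29e-12, limma). Neither gene had any overlap between the sexes.

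Genes for the upkeep and transcription of mitochondrial DNA were called higher in females in 8 of 11 cases and higher in males in 0, with a median of -1.36. mtSSB, which coats single-stranded mitochondrial DNA, had the largest difference at -3.83 (SE 0.14), followed by mTerf5, of the family of mitochondrial termination factors, at -2.18 (SE 0.09), PolG1, the catalytic subunit of the mitochondrial DNA polymerase, at -2.05 (SE 0.12) and mtDNA-helicase at -1.70 (SE 0.12). TFAM, which packages mitochondrial DNA and starts its transcription, differed by -1.65 (SE 0.10). Of 4 regulators listed, Dref, a transcription factor of growth and replication genes, was called at -2.94 (SE 0.16) and Ets97D, the fly relative of the mammalian NRF-2 alpha subunit, at -0.88 (SE 0.08).

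The remaining factors of translation were split. Of 8 mitochondrial translation factors, 4 (50%) were called higher in females and 2 in males. mEFG1, the translocase, was at -1.69 (SE 0.09) and mRRF1, the ribosome recycling factor, at -1.62 (SE 0.11), whereas mEFTs and mEFTu2, the pair of an exchange factor and a GTPase that delivers aminoacyl-tRNA, were higher in males by 1.53 (SE 0.06) and 1.11 (SE 0.06). mEFTu1 was higher in females (-1.05, SE 0.06). Of 17 mitochondrial tRNA synthetases and amidotransferase subunits, 7 (41.2%) were higher in females and 3 in males, the latter led by TrpRS-m (2.99, SE 0.08) and CysRS-m (2.90, SE 0.05). AspRS-m (-1.49, SE 0.10) and SerRS-m (-1.10, SE 0.06) were the largest in the female direction. Of 19 import components and chaperones, 6 (31.6%) were higher in females and 8 in males, with ttm2 (5.46, SE 0.06), Tim13 (5.00, SE 0.08) and tomboy40 (4.85, SE 0.07) at the male end.

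The nuclear genes for the respiratory chain and the ATP synthase, whose partner subunits the mitochondrial ribosome makes, ran the other way. Of 70 such genes, 0 were called higher in females and 45 higher in males, with a median of 0.66. Of these, 14 have symbols ending in L, for relatives of a standard subunit, and had a median of 3.12, with 13 called, led by COX4L (6.63, SE 0.05) and COX5BL (5.84, SE 0.06). The other 56 had a median of 0.58, with 32 called higher in males. Of 37 cytosolic ribosomal protein genes, 31 were called higher in females and 5 in males, with a median of -0.54 and quartiles at -0.60 and -0.48. At the ends of the list RpS5b differed by -5.38 (SE 0.24) and RpL10Aa by 4.85 (SE 0.07).

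**Figure D3:**
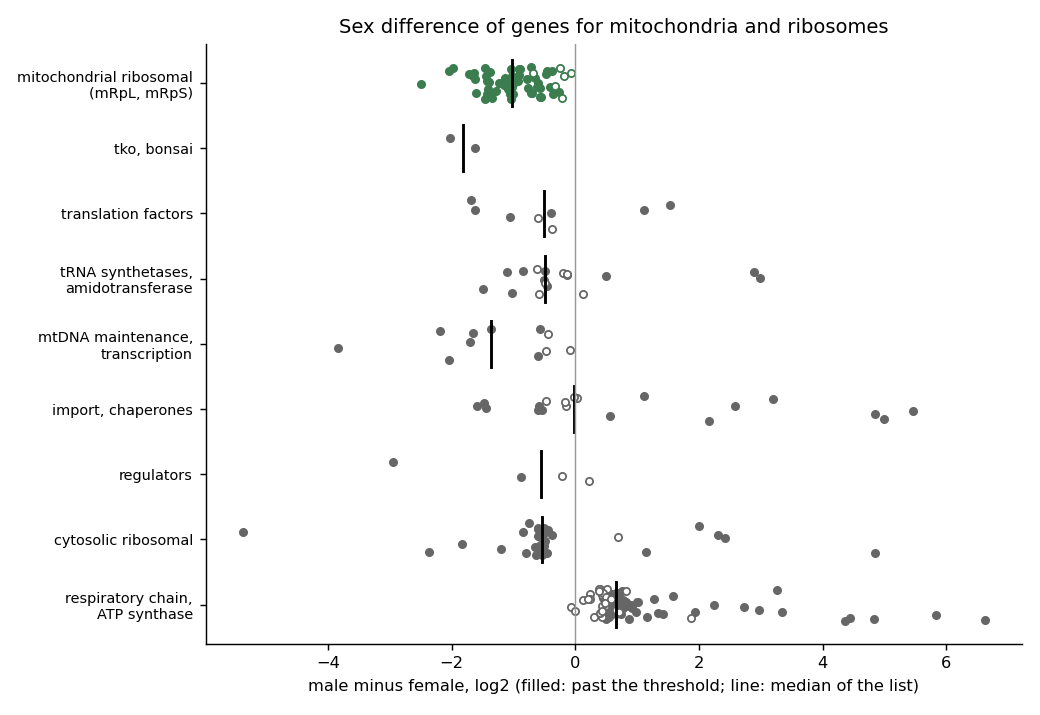
Male minus female difference (log2) of the members and of the genes in 8 other lists, 1 point for each gene, filled where called, with the median of each list as a line. The medians were -1.03 for the members, -1.36 for mitochondrial DNA maintenance, -0.54 for cytosolic ribosomal proteins and 0.66 for the respiratory chain and ATP synthase.

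Tissue markers were called between the sexes as well, and measures of RNA quality were set beside them. Of the markers, 27 of 29 for ovary and germline and 14 of 14 for eggshell were called higher in females. Called higher in males were 16 of 22 for testis and sperm, 13 of 13 for the accessory gland, 16 of 21 for muscle and 2 of 5 for fat body. In the opposite direction, 1 ovary and germline marker was called higher in males and 1 testis and sperm marker higher in females. The summed muscle signal was 13.2 to 15.9 (log2) in females and 15.3 to 16.4 in males, lowest in Glasgow females. The GAPDH control signal at the 3′ end exceeded that at the 5′ end by 1.52 to 2.11 in females and by 1.49 to 2.72 in males, the actin control by 1.64 to 3.24 and 2.10 to 3.83 and the eIF-4a control by 2.65 to 4.38 and 2.72 to 4.45. These ranges overlapped, with means of 1.79 and 2.30, 2.60 and 3.13, and 3.51 and 3.65. The median of all probe sets was 0.12 higher in males, and with arrays centred on their medians all 64 estimates stayed below 0. The part of tissue makeup and of RNA quality in the sex difference was not tested.

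Within strains, females were also higher, and no member was called higher in males in any strain. In France 24 members were called (median difference -0.81), in Antigua 30 (-0.88), in Glasgow 46 (-1.14), in Cambridge 38 (-1.11) and in Hikone 23 (-0.998), where 13.3%, 13.0%, 20.5%, 15.7% and 13.6% of all probe sets were called higher in females. The counts for Hikone rest on 2 female arrays and fell to 12 without Hikone females replicate 1 and to 13 without replicate 2. The count for France fell to 15 without France males replicate 2, and that for Cambridge fell to 16 without the males with raised Yp1, which left 1 male array there. The shares of all probe sets called with arrays left out are not given here. A count that differs between strains does not show that the sex difference itself differed, which the interaction tests.

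**Figure D4:**
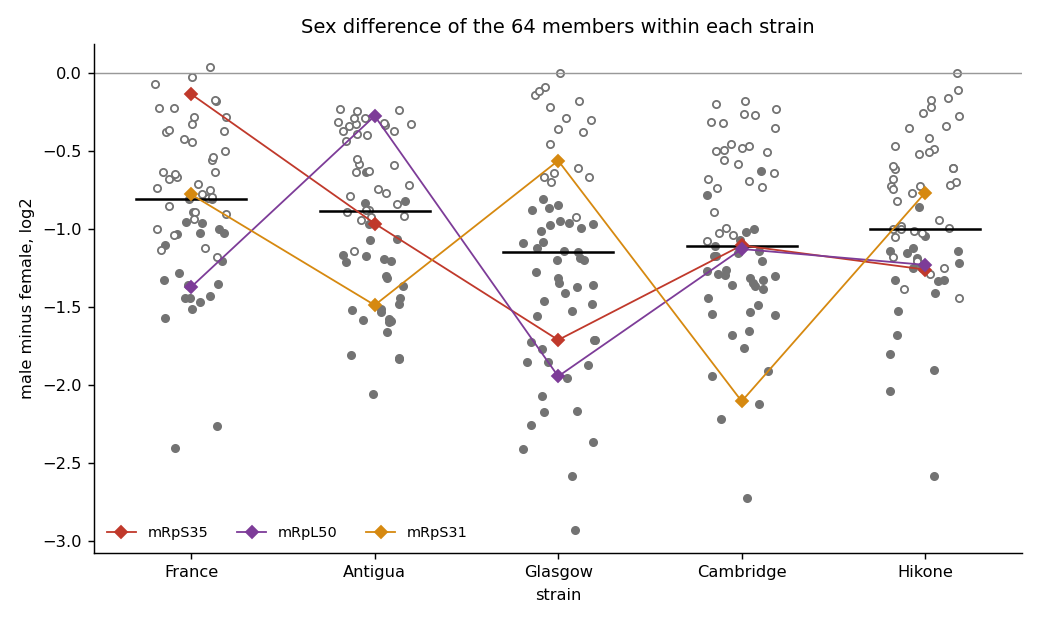
Male minus female difference (log2) of the 64 members within each strain, filled where called, with the median as a line, and with mRpS35, mRpL50 and mRpS31 joined across strains. mRpS35 was at -0.13 in France and -1.71 in Glasgow, mRpL50 at -0.27 in Antigua and -1.94 in Glasgow.

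Few members passed the threshold for a difference among the strains. Averaged over sex, 7 of 64 were called (10.9%), where 15.8% of all probe sets were. Within females 2 were called (background 6.53%), within males 7 (background 9.67%), and for the interaction of sex and strain 2 (background 2.56%). At an unadjusted p below 0.05 the numbers were 58, 44, 48 and 36 of 64 (90.6%, 68.8%, 75% and 56.2%), close to the 86.4%, 69.3%, 76.3% and 55.4% of all probe sets. The 7 members called over both sexes, mRpS35, mRpL23, mRpS31, mRpL45, mRpL49, mRpL50 and mRpL18, were also the 7 called in males. Numbers in the sample titles run on within each strain, and what they number is not given in the sources used here.

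mRpS35, a small subunit protein without a bacterial counterpart (3L, 2780899 to 2782105), was high in France, above all in males. The France males had 8.17, 8.06 and 8.35, while the Antigua males had 6.70, 6.54 and 6.36, the Glasgow males 5.89, 6.08 and 5.86, the Cambridge males 6.17, 6.42 and 6.38 and the Hikone males 6.20, 6.24 and 6.12. France males were thus above every other male array by more than 1 log2 unit and reached the level of France females. Against the mean of the other 4 strains, France males differed by 1.95 (SE 0.08, adjusted p = 4.57e-12, limma), and Glasgow males by -0.87 (SE 0.08, adjusted p = 2.02e-05, limma). France females, with 8.33, 8.20 and 8.45, were also above all other female arrays (7.21 to 7.67), by 0.82 (SE 0.09, adjusted p = 6.2e-05, limma).

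The sex difference of mRpS35 was accordingly uneven. It was -0.13 in France (SE 0.11), which was not called, -0.96 in Antigua, -1.10 in Cambridge, -1.26 in Hikone and -1.71 in Glasgow, all 4 called. The interaction was called (adjusted p = 0.000462, limma) and gave 0.0145 when the arrays were quantile normalized again. The strain test within females (adjusted p = 0.00203, limma) was lost without any 1 of the 3 France female arrays, with values up to 0.0894, and without the 3 male arrays with raised Yp1 (0.0108).

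mRpL23, whose bacterial counterpart sits at the exit of the nascent chain tunnel (3L, 2372844 to 2373704), was high in Hikone in both sexes. The Hikone females had 9.62 and 9.66, and the 12 other female arrays stayed between 8.03 and 8.69. The Hikone males had 8.73, 8.77 and 8.84, and the other male arrays lay between 7.29 and 7.94. Hikone thus stood apart without overlap in each sex, by 1.36 in females (SE 0.09, adjusted p = 4.91e-08, limma) and 1.16 in males (SE 0.08, adjusted p = 3.91e-08, limma). Antigua females (-0.61, SE 0.08) and Cambridge females (-0.58, SE 0.08) were called below the mean of the others, a mean that includes Hikone. The interaction of mRpL23 was not called.

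mRpS31, a small subunit protein of the mitochondrial series (3L, 16005193 to 16006599), was low in Cambridge males. These had 5.60, 4.76 and 5.45, against 6.10, 6.35 and 6.67 in Antigua males and 6.86 to 7.09 in the males of France, Glasgow and Hikone. Cambridge females, at 7.43, 7.49 and 7.20, lay just below the other females (7.52 to 8.07). The difference of Cambridge males from the other strains was -1.58 (SE 0.13, adjusted p = 5.92e-07, limma). The sex difference was largest in Cambridge, at -2.10, and smallest in Glasgow, at -0.56, but the interaction was not called (adjusted p = 0.0582, limma). All 3 Cambridge male arrays were low, replicate 3 without raised Yp1 (5.45) included, and without the 3 male arrays with raised Yp1 the test among males gave an adjusted p of 0.00138 (limma).

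mRpL50, a large subunit protein of the mitochondrial series (3L, 7243080 to 7243933), was high in Antigua males. These had 6.67, 6.77 and 6.75, just below the Antigua females at 7.06, 6.95 and 7.0, whereas the other male arrays lay between 5.38 and 6.15. Glasgow females were the highest females, at 8.06, 7.84 and 7.56. Antigua males differed from the other males by 0.90 (SE 0.10, adjusted p = 0.000406, limma) and Glasgow females from the other females by 0.78 (SE 0.11, adjusted p = 0.00495, limma). The sex difference was -0.27 in Antigua, which was not called, and between -1.13 and -1.94 in the other 4 strains. Its interaction had an adjusted p of 0.00832 (limma), which was lost without any of 25 of the 29 arrays, left out 1 at a time, with values up to 0.0561. Without the 3 male arrays with raised Yp1 its strain test in females was called (adjusted p = 0.000499, limma), which it was not with them (0.0104).

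**Figure D5:**
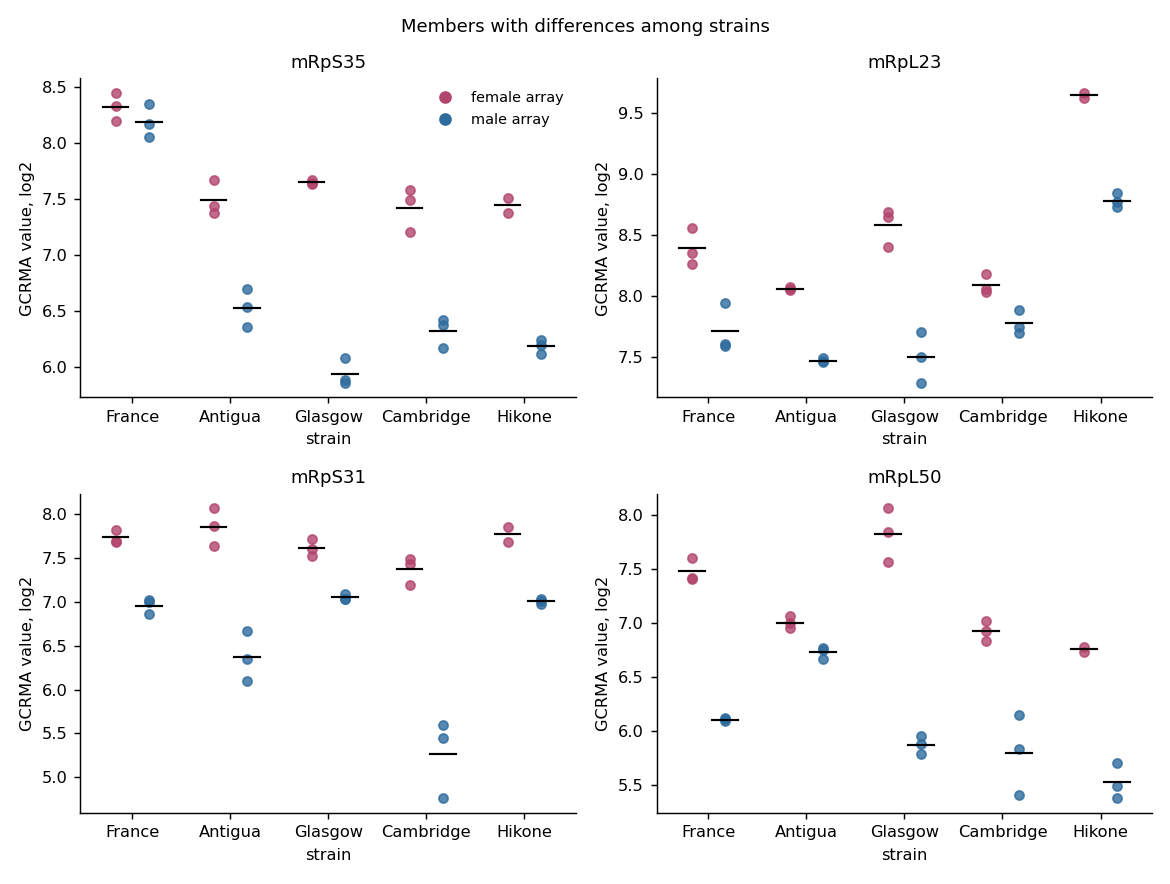
Log2 values of mRpS35, mRpL23, mRpS31 and mRpL50 on each array, by strain and sex, with group means as black lines. The France males in mRpS35 (8.06 to 8.35), both sexes of Hikone in mRpL23, the Cambridge males in mRpS31 (4.76 to 5.60) and the Antigua males in mRpL50 (6.67 to 6.77) stand apart from the other strains.

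The 3 other members called among strains differed in males by less. mRpL45, which in mammals ties the tunnel exit to the inner membrane, was at 7.36, 7.31 and 7.37 in France males and at 6.00 to 6.85 in the other males, a difference of 0.87 (SE 0.10, adjusted p = 0.000223, limma). mRpL49, of the mitochondrial series, was lowest in Hikone males, at 6.50, 6.40 and 6.32, against 6.51 to 7.49 elsewhere (-0.66, SE 0.09, adjusted p = 0.00382, limma). mRpL18, which binds the small ribosomal RNA of the large subunit in bacteria, was at 6.70, 6.66 and 6.44 in Hikone males and at 6.84 to 7.45 in other males (-0.55, SE 0.07, adjusted p = 0.00223, limma). In each of these 3 the named group lay wholly outside the other male arrays, for mRpL49 by 0.01. mRpL9, of bacterial type, was called in France males against the others as well (0.87, SE 0.12, adjusted p = 0.00514, limma), though not by the test over all strains in males. Without Hikone males replicate 3, 4 members were called among males. That array ended the calls of mRpL18 (adjusted p = 0.0603), mRpL49 (0.0111) and mRpL50 (0.0157, limma in each case). The call of mRpL18 was lost without any of 16 arrays, left out 1 at a time, that of mRpL45 without France males replicate 1 (0.0121) or 3 (0.0128), and that of mRpL50 also without Hikone males replicate 1 (0.0167) or any Antigua male array (0.03 to 0.0569). Without the 3 male arrays with raised Yp1, 5 members were called among males, the calls of mRpL45 (0.0443) and mRpL18 (0.0799) being lost. Averaged over sex, the call of mRpL50 was lost without any of 19 arrays and that of mRpL45 without any of 7, left out 1 at a time, and that of mRpL45 also without the 3 arrays with raised Yp1 (0.0554). With each sex fitted on its own, 2 members were called among males, mRpS35 (adjusted p = 8.56e-06, limma) and mRpL23 (0.00463). For these alternative fits the shares of all probe sets called are not given here.

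Each strain was set against the mean of the other 4 in each sex, comparisons that share arrays. In females 1 member was called in each strain, where 1.92% of all probe sets were called in France, 1.62% in Antigua, 5.41% in Glasgow, 0.723% in Cambridge and 0.766% in Hikone. In males 3 members were called in France (background 5.15%), 1 in Antigua (1.50%), 1 in Glasgow (2.36%), 1 in Cambridge (3.42%) and 3 in Hikone (1.93%). Since 1 of 64 is 1.56% and 3 of 64 are 4.69%, these small counts lie on both sides of the shares.

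A shift too small to be called in most members ran through France males. Of 64 estimates against the other 4 strains, 52 were above 0 (81.2%), with a median of 0.29, where 31.4% of all probe sets were above 0, with a median of -0.13. Other groups had one-sided estimates too. France females had 45 above 0 (70.3%, median 0.10), where 27.2% of all probe sets were above 0, with a median of -0.12. Glasgow females had 49 (median 0.19), Antigua males 14 (-0.09), Antigua females 11 (-0.17) and Hikone females 15 (-0.17). For these groups 60.6%, 34.5%, 62.5% and 31.1% of all probe sets were above 0, in that order. The median deviation of the members was -0.35 to -0.22 on the France male arrays and -0.69 to -0.41 on the other male arrays, which did not overlap. On the same arrays the respiratory chain and ATP synthase genes were high too, at 0.70 to 0.82 against -0.20 to 0.45 on the other male arrays, while the cytosolic ribosomal proteins, at -0.29 to -0.23, lay within the range of the others (-0.39 to -0.05). The difference between 3′ and 5′ control signals was low in France males for actin (2.10 to 2.77, other males 2.73 to 3.83) and for GAPDH (1.49 to 1.98, other males 1.75 to 2.72). The difference for eIF-4a was 2.72 to 3.17 (other males 3.14 to 4.45). France males also had the highest summed muscle signal, 16.31 to 16.37 (other males 15.3 to 16.27), and the lowest of the accessory gland, 14.6 to 14.7 (other males 14.95 to 15.63). France females were likewise low in the eIF-4a difference (2.65 to 2.84, other females 2.88 to 4.38). They were also high in the respiratory chain and ATP synthase genes (0.11 to 0.31, other females -0.88 to -0.07). Their median deviation of the members, 0.51 to 0.63, lay within the range of the other females (0.24 to 0.76). The part of RNA quality and tissue makeup in the shift was not tested.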

How the data were processed

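Whole flies of 5 strains and both sexes were measured on 29 arrays of the Affymetrix Drosophila Genome 1 type. The deposited values are log2 summaries made by the authors with GCRMA (background adjusted by the GC content of probes, quantile normalization, version not given in the sources used here). Quantile normalization gives the arrays similar distributions, so differences are relative to the other probe sets. Values were used as deposited. The 44 array controls were left out and 13966 probe sets tested without a filter. Probe sets were named from the platform annotation, and positions come from the RefSeq table of Release 6. Arrays give no counts, so their number limits the precision.

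A limma model (version 3.58.1, R 4.3.3, lmFit and eBayes) held 1 mean per group of strain and sex, 10 in all, with contrasts for sex, sex within strain, each strain against the other 4 within a sex, and moderated F-statistics among strains and for the interaction. P-values were adjusted by Bonferroni and called below 0.01. The script was tested on simulated data. Members and lists were chosen with earlier results of these data known. Named were the 10 largest sex differences, the members called among strains, tko, bonsai, mRpL12 and mRpL10, members next to the threshold and, in other lists, up to 4 genes with the largest sex difference. mRpL9, mRpL11, mRpL15, the S18 relatives, TFAM and the members with no call or in closest pairs were named after their values were seen where they fall outside this. Rrp46 and Rlb1 were dropped from the lists, the first as an exosome subunit and the second for its uncertain role. The labels do not say whether same-numbered samples share a day or batch, and replicate numbers were not taken as pairs.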

Additional observations from a re-analysis of the deposited data

Results flagged for a closer look

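Of the members, 2 had a sex difference that differed among strains by the test of the interaction itself (limma, Bonferroni over all probe sets). They are 3.1% of the 64, near the 2.56% of all probe sets called, so the count does not set the members apart. mRpS35, with a sex difference of -0.13 in France and -1.71 in Glasgow, had an adjusted p of 0.000462. mRpL50, with -0.27 in Antigua and -1.94 in Glasgow, had an adjusted p of 0.00832. With arrays left out singly, the mRpL50 call was lost without any of 25 of the 29 arrays (adjusted p up to 0.0561, limma). The mRpS35 call was kept each time. Both calls were lost when quantile normalization was repeated (adjusted p = 0.0388 for mRpL50 and 0.0145 for mRpS35, limma). Groups of 2 or 3 arrays were not given a separate test for outlying arrays.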

How the results depend on the processing

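No estimate of a sex difference changed sign under any alternative. Across them 52 to 63 members were called higher in females (55 to 58 with 1 array left out), 25 to 40 over 2-fold (33 to 36) and 0 higher in males. The median difference was -1.05 to -1.01 with 1 array left out, -1.15 with arrays centred on their medians and -0.91 with quantile normalization repeated. With Benjamini-Hochberg in place of Bonferroni the calls among strains rose to 47 averaged over sex, 28 in females, 38 in males and 14 for the interaction, the sex calls to 53 in France, 55 in Antigua and 54 in Hikone, and the calls of 1 strain against the others from 5 to 39 in females and from 9 to 75 in males. At an adjusted p below 0.05 they were 11 averaged over sex and 8 for 1 strain against the others in females. Below 1e-04 they were 2 averaged over sex, 1 in females, 3 in males and 0 for the interaction (limma, 36 at an unadjusted p below 0.05), 11 in France, 16 in Antigua, 28 in Glasgow, 22 in Cambridge and 10 in Hikone for sex, and 2 and 4 for 1 strain against the others in females and males. The shares of all probe sets called under these adjustments and thresholds are not given here, so the counts do not set the members apart. At an unadjusted p below 0.05 (limma), 90.6% of members and 86.4% of all probe sets passed for strain averaged over sex. Repeated quantile normalization left 0 calls of the interaction and 3 of 1 strain against the others in females, and a variance trend with robust moderation left 1 of the interaction. With each sex fitted on its own, 1 member was called in females and 2 in males, and without the 6 Cambridge arrays 4 in each. Without the male arrays with raised Yp1, a choice made after seeing the data, 16 members were called for sex in Cambridge, where 1 male array remained and was assumed to vary like the other groups.

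With 1 array left out, calls ran from 5 to 9 averaged over sex, 1 to 3 in females, 4 to 8 in males and 1 to 2 for the interaction. For sex they ran from 15 to 26 in France, 25 to 33 in Antigua, 37 to 46 in Glasgow, 31 to 43 in Cambridge and 12 to 27 in Hikone. For 1 strain against the others they were 2 to 6 in females and 6 to 11 in males. The shares of all probe sets called with arrays left out, singly or in sets, are not given here. A change in these counts was therefore not compared with the whole array. The calls of 1 strain against the others in females fell to 2 or 3 without any Antigua female array, Hikone female array or Glasgow females replicate 1 or 2. Same-numbered males and females of a strain had deviations that correlated at -0.06 to 0.43, with 6 of 14 over 0.1. The highest values, 0.43 and 0.42, were both in Cambridge. Differently numbered arrays were not compared, so these values do not decide whether the numbers mark pairs, and they were not taken as pairs. With the replicate number as a block 1 member was called in females, the other counts staying within 1.5 times. The cause of these changes was not tested, except that a looser or stricter adjustment admits more or fewer by construction. Of the sex calls, that of mRpL41 was lost under 31 of 41 alternatives and that of mRpL24 under 20, those of mRpS17 and mRpS9 under 4 each, mRpL22 under 3 and mRpL2, mRpL40 and mRpL43 under 1 each.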
